A study of Mus musculus with 7 samples.

Results

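The genes described here are 10 genes of antigen presentation, chosen by name for their known roles among 14641 genes in the count table: the class I heavy chains H2-K1 and H2-D1, their light chain B2m, the class I peptide loading genes Tap1, Tap2 and Tapbp, the class II chains H2-Aa, H2-Ab1 and H2-Eb1, and the invariant chain Cd74. This choice was made with earlier results of these data known. Reads were counted in 7 mouse heart libraries, 4 from non-transgenic mice (NTG, libraries 1 to 4) and 3 from mice with cardiac overexpression of Nrf2 (mNrf2-TG, libraries 17 to 19). Each library came from 1 male mouse, and all mice were on the C57BL/6J background. The transgene coded for full-length Nrf2 and was driven in cardiomyocytes by the αMHC promoter. The mNrf2-TG labels gave an age of 6 months, the methods gave 6 to 7 months and the description of the series gave 7 to 8 months. Between 6534684 and 8405857 reads per library lay on the listed genes.

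Class I molecules display peptides from inside the cell and occur on nearly all nucleated cells. Proteasomes cut the peptides, the Tap1 and Tap2 transporter moves them into the endoplasmic reticulum, and tapasin, the product of Tapbp, holds the transporter and the empty class I molecule together. Class II molecules display peptides from material that was taken up, and in the heart they are best known from macrophages and dendritic cells. The invariant chain Cd74 fills the class II groove until lysosomal proteases remove it. Interferon gamma induces both pathways, through the class I transactivator Nlrc5 and the class II transactivator Ciita.

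The members lie together in the genome. In GENCODE M21 (GRCm38), 8 of the 10 members are on chromosome 17, in the mouse MHC: Tapbp at chr17:33915899-33929292 and H2-K1 at chr17:33996017-34000347 are followed by Tap1 at chr17:34187553-34197225 and Tap2 at chr17:34203527-34216321. The class II chains come next, with H2-Ab1 at chr17:34257689-34269419, H2-Aa at chr17:34282744-34287823 and H2-Eb1 at chr17:34305867-34316674, and H2-D1 is at chr17:35262730-35267499. B2m is at chr2:122147686-122153083, away from the MHC, and Cd74 is on another chromosome.

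Promoters are shown for 3 class I and 2 class II genes. All were highest in library mNrf2-TG 18, as were the members not shown, but they did not move alike in every library. H2-D1, H2-Aa and H2-Eb1 were lowest in NTG 3, and H2-K1 and B2m were not, as described in the following paragraphs. B2m lies on a different chromosome from the others shown. The sequences are the 250 bases before the start site in RefSeq (GRCm38.p6), read in the direction of the gene. Capitals mark matches on either strand to the Y box (CTGATTGG, bound by NF-Y), the shorter CCAAT box within it (ATTGG), a cAMP response element half-site as in the X2 box (TGACG), the recognition sequence of interferon regulatory factors (AANNGAAA), the NF-kappaB site of the class I enhancer A (GGGATTCCC) and the antioxidant response element core through which Nrf2 acts (TGACNNNGC). The letters were chosen with these promoters in view.
H2-K1, chr17:34000348-34000597, minus strand: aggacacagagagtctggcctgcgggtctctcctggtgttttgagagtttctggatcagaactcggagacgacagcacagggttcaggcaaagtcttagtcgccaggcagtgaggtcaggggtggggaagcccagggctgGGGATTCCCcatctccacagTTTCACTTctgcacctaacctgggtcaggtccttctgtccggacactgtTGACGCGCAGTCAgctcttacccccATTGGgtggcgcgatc
H2-D1, chr17:35262844-35263093, plus strand: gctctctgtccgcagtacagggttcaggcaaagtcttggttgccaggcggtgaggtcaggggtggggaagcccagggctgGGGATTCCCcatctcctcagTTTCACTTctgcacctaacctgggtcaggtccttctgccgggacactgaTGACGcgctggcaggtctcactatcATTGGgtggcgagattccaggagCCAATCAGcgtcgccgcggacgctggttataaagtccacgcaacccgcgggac
B2m, chr2:122147437-122147686, plus strand: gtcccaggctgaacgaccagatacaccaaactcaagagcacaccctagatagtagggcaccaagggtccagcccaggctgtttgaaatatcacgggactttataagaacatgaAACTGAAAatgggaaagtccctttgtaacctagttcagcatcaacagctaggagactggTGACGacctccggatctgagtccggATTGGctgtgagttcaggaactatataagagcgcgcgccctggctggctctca
H2-Aa, chr17:34287824-34288073, minus strand: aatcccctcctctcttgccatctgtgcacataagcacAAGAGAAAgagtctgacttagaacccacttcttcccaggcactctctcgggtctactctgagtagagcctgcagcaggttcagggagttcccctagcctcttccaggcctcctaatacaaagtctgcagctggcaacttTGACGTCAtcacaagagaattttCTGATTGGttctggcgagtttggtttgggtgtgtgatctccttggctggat
H2-Eb1, chr17:34305617-34305866, plus strand: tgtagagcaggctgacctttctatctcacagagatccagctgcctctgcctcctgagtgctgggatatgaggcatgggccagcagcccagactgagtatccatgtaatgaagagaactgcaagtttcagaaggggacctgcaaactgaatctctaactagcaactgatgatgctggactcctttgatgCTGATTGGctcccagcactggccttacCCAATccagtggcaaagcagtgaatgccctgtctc

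Of the 10 members, 7 were matched and searched: the 5 shown, Tap1 and Tapbp. H2-Ab1 and Tap2 were not matched, and Cd74 was not searched. H2-K1 has a pair of start sites, and the first is shown. The Y box was found in 4 of 7 members (H2-D1, Tap1, H2-Aa and H2-Eb1) and in 3.83% of 32851 promoters of this length. In H2-Aa it starts 51 bases before the start site, and in H2-Eb1 62 bases before it. The CCAAT box was in 7 of 7 members and in 33.8% of all promoters. The half-site TGACG was in 5 of 7 (H2-K1, H2-D1, B2m, Tap1 and H2-Aa) and in 17.8% of all. The sequence AANNGAAA was in 4 of 7 (H2-K1, H2-D1, B2m and H2-Aa) and in 21.3% of all. GGGATTCCC was in H2-K1 and H2-D1 and in 0.301% of all promoters. The antioxidant core was in 1 of 7, H2-K1, where it overlaps the TGACG match, and in 10.2% of all. The interferon gamma-activated site TTCNNNGAA was in 0 of 7 and in 7.02% of all. These matches describe letters in a window and were not tested as sites.

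The transgene was checked first. Reads on Nfe2l2, the gene of Nrf2, numbered 1220, 1392, 729 and 1055 in NTG 1 to 4 and 11181, 10912 and 12839 in mNrf2-TG 17, 18 and 19. They include reads from the transgene. The mNrf2-TG libraries were therefore separated from NTG, and library 18 was the lowest of the 3. Across 14637 genes tested with edgeR's quasi-likelihood test, 17.2% passed an adjusted p of 0.05 (Benjamini-Hochberg), 8.48% higher and 8.73% lower in mNrf2-TG.

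No member passed the test: 0 of 10 in edgeR against 17.2% of all genes, and 1 of 10, Tap1, had an unadjusted p below 0.05. DESeq2 and limma-voom also called 0 of 10, and DESeq2 gave no p for Tap1 and H2-Aa. The groups overlapped for every member, whereas 29.7% of all genes had groups that did not overlap. Yet the 10 members had a common pattern. Library mNrf2-TG 18 was the highest of the 7 libraries in 10 of 10 members, which held for 15.7% of all genes, and it exceeded the next library by more than 2-fold in 8 of 10 members, against 1.02% of all genes. This pattern was seen in the data before it was counted. Values that follow are counts normalized by TMM (edgeR's trimmed mean of M values) to the mean library size, Log2FC is mNrf2-TG over NTG, and its error is the standard error of the fit.

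Among the class I heavy chains, H2-K1 had normalized counts of 1422, 990, 1184 and 1237 in NTG 1 to 4 and of 1038, 4212 and 1053 in mNrf2-TG 17, 18 and 19. Libraries 17 and 19 lay within the NTG range, and library 18 was 2.96 times the next highest. The Log2FC of H2-K1 was 0.80 ± 0.425 (edgeR adjusted p = 0.225). H2-D1 had normalized counts of 867, 748, 479 and 832 in NTG and of 540, 2010 and 715 in mNrf2-TG. Library 18 was again the highest, 2.32 times the next, and its Log2FC was 0.57 ± 0.387 (edgeR adjusted p = 0.341). Reads on these heavy chains are not fully separable. Of the windows of 50 bases, the read length, in the principal transcript, 8.79% in H2-K1 and 14.3% in H2-D1 occur unchanged in another gene, mainly in each other and in H2-Q genes.

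B2m, the light chain that every classical class I heavy chain needs at the cell surface, had the highest level of the members per kilobase. Its normalized counts were 3939, 3053, 3056 and 4032 in NTG and 2286, 8073 and 2087 in mNrf2-TG. Library 18 was 2.00 times the next library, whereas libraries 17 and 19 were the lowest of the 7. The Log2FC of B2m over all libraries was 0.24 ± 0.401 (edgeR adjusted p = 0.729). B2m lies within Patl2 on the opposite strand, and Patl2 was not among the genes of the table.

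The transporter subunits differed from each other in how far they moved in library 18. Tap1 had normalized counts of 72.4, 45.0, 52.6 and 49.8 in NTG and of 59.2, 416 and 49.9 in mNrf2-TG. Libraries 17 and 19 lay within the NTG range and library 18 was 5.74 times the next, the largest such ratio of the members. Its Log2FC was 1.68 ± 0.651 (unadjusted p = 0.0275 and adjusted p = 0.105 in edgeR). Tap2, whose product pairs with that of Tap1, had normalized counts of 151, 157, 180 and 172 in NTG and of 148, 290 and 126 in mNrf2-TG. Library 18 was 1.61 times the next, and the Log2FC was 0.19 ± 0.244 (edgeR adjusted p = 0.649). The ratio of Tap1 to Tap2 was 0.481, 0.286, 0.291 and 0.289 in NTG 1 to 4 and 0.399, 1.44 and 0.396 in mNrf2-TG 17, 18 and 19. Per kilobase of principal transcript, Tap1 was at 141 and Tap2 at 84.2 normalized counts in library 18, and Tap1 was below Tap2 in the other 6 libraries. Tap1 shares 212 bases with Psmb9 on the opposite strand, and the sources do not state whether reads were counted by strand.

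Tapbp varied least. It had normalized counts of 532, 486, 562 and 503 in NTG and of 519, 851 and 536 in mNrf2-TG, so that library 18 was 1.51 times the next. The Log2FC was 0.29 ± 0.158 (edgeR adjusted p = 0.241). Tapbp shares 3422 bases of its span with Zbtb22 on the same strand. Zbtb22 had 133, 145, 143 and 150 normalized counts in NTG and 162, 158 and 200 in mNrf2-TG, so it was not highest in library 18.

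The class II genes shared a wider spread, which had a low end as well as a high end. H2-Aa, the alpha chain of I-A, had normalized counts of 513, 454, 150 and 411 in NTG and of 230, 1654 and 292 in mNrf2-TG. H2-Ab1, its beta chain, had 360, 352, 69.1 and 286 in NTG and 150, 1244 and 231 in mNrf2-TG. H2-Eb1, the beta chain of I-E, had 339, 306, 92.8 and 284 in NTG and 140, 1319 and 223 in mNrf2-TG. For each of the 3 chains the order was the same: NTG 3 was lowest, libraries 17 and 19 came next, NTG 4, 2 and 1 followed, and library 18 was highest. Cd74 had normalized counts of 1150, 929, 388 and 804 in NTG and of 563, 3500 and 631 in mNrf2-TG, in that same order. The ratio of library 18 to the next was 3.23 for H2-Aa, 3.46 for H2-Ab1, 3.89 for H2-Eb1 and 3.04 for Cd74.

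The Log2FC was 0.93 ± 0.624 for H2-Aa, 1.02 ± 0.681 for H2-Ab1, 1.14 ± 0.671 for H2-Eb1 and 0.94 ± 0.586 for Cd74, with edgeR adjusted p of 0.340, 0.335, 0.275 and 0.303. In the mice with no transgene, NTG 3 was 2.75-fold below the next NTG library for H2-Aa, 4.14-fold for H2-Ab1, 3.06-fold for H2-Eb1 and 2.07-fold for Cd74. Such a drop of more than 2-fold below the other NTG libraries was found in 4 of 4 class II members and in 0.393% of the 9666 genes with a mean normalized count of at least 50. This drop was also seen in the data before it was counted, so the count describes these genes and is not a test. Within NTG, library 3 was the lowest for H2-D1 but not for the other class I and loading members. The class II spread within NTG is therefore part of the standard errors above.

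**Figure D1:**
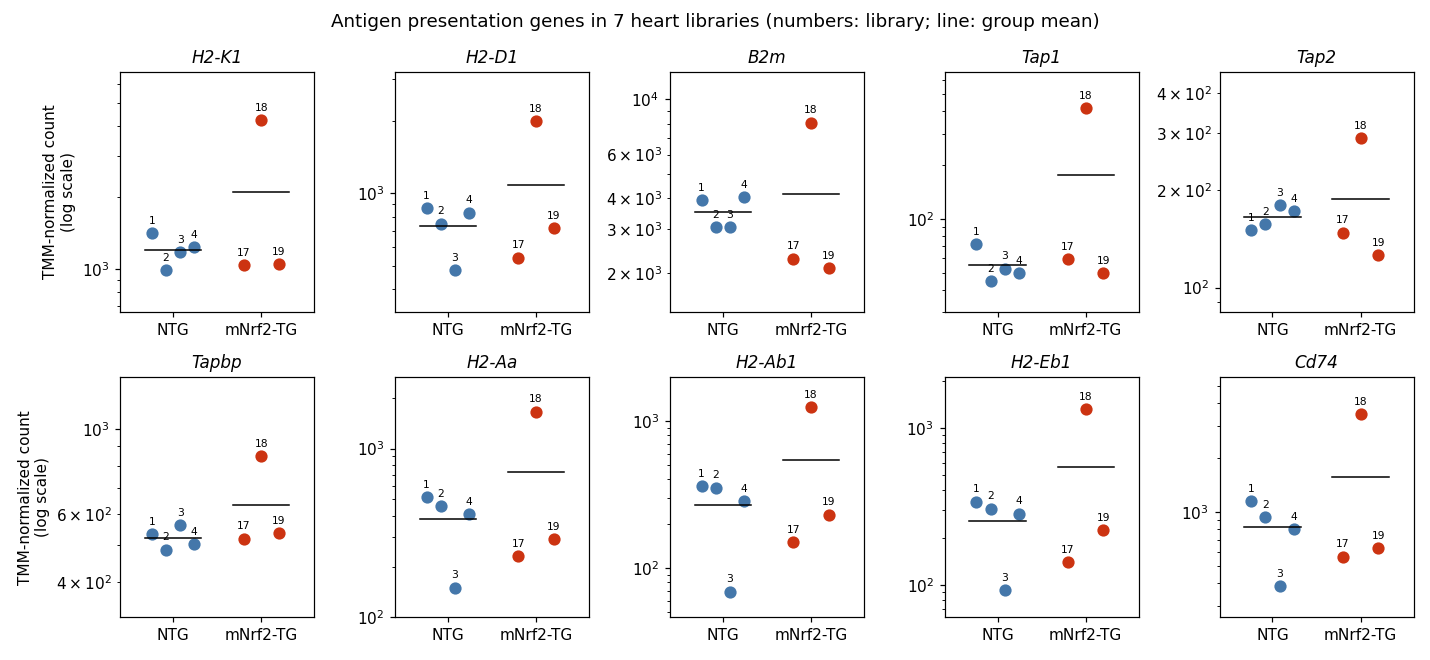
TMM-normalized counts of the 10 members on log axes. Each point is 1 library with its number, blue for NTG and red for mNrf2-TG, and the line is the group mean. Library 18 stands above the other 6 in every panel, and NTG 3 is lowest in the 4 class II panels.

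The test over all libraries rested on library 18. With it left out, the Log2FC was negative in 9 of 10 members, with a median of -0.36 against 0.86 with all libraries. The medians over all genes tested were -0.01 and 0.00. Without library 18, 1 of 10 members passed edgeR's test: B2m fell, with a Log2FC of -0.69 (adjusted p = 0.0178 in edgeR), and 5.11% of all genes were lower under that fit and 5.12% higher. The other 9 members had adjusted p of 0.217 or above. Their Log2FC was -0.21 for H2-K1, -0.22 for H2-D1, -0.01 for Tap1, -0.27 for Tap2 and 0.02 for Tapbp, and -0.54, -0.48, -0.48 and -0.45 for H2-Aa, H2-Ab1, H2-Eb1 and Cd74. With library 19 left out instead, Tap1 passed the test, with a Log2FC of 2.13 (adjusted p = 0.0459 in edgeR). With NTG 3 left out, the class II values were between 0.66 and 0.86, and no member was called.

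**Figure D2:**
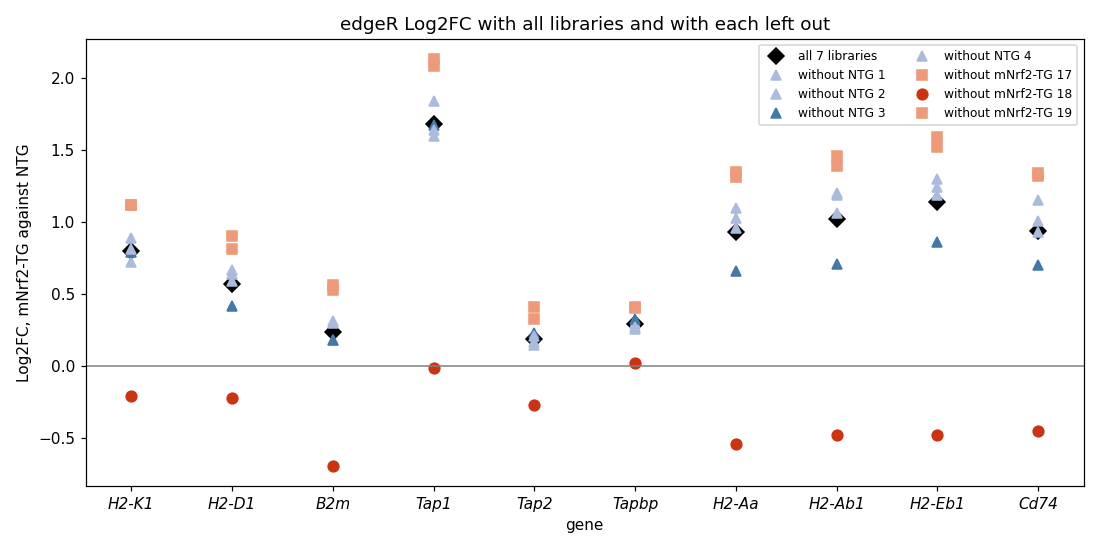
Log2FC of each member (mNrf2-TG over NTG, edgeR) with all 7 libraries (black diamonds) and after removal of 1 library at a time. The red circles, without mNrf2-TG 18, lie below 0 for 9 of 10 members, whereas the Log2FC is above 0 for all 10 members in each of the other fits.

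Ratios were also read within the class I and class II pairs. H2-K1 was between 1.32 and 2.47 times H2-D1, and both extremes were NTG libraries. H2-Eb1 was 0.942, 0.870, 1.34 and 0.993 times H2-Ab1 in NTG and 0.935, 1.06 and 0.965 times in mNrf2-TG. In library 18 the class II chains and Cd74 had thus gone up in similar proportion, and in NTG 3 H2-Ab1 was low in relation to the other class II members. The ratio of Cd74 to H2-Ab1 was 5.61 in NTG 3 and between 2.64 and 3.76 in the other 6 libraries. Per kilobase of the principal transcript, B2m was 3.55, 3.67, 3.70 and 4.04 times the sum of H2-K1 and H2-D1 in NTG and 2.96, 2.64 and 2.45 times in mNrf2-TG. For this ratio the 3 mNrf2-TG libraries lay together below the 4 NTG libraries, library 18 included. It was chosen after the values were seen and has no test.

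Per kilobase of the principal transcript, the members ranked as follows in NTG (mean ± SD, n = 4). B2m was at 4093 ± 627 normalized counts per kb, above all others in every NTG library. H2-K1 was at 746 ± 110 and Cd74 at 580 ± 227, and their ranges overlapped. H2-D1 was at 348 ± 83.4, H2-Aa at 338 ± 142, H2-Ab1 at 220 ± 112, Tapbp at 180 ± 11.5 and H2-Eb1 at 153 ± 66.4, and neighbours in this order overlapped. Tap2 followed at 48.0 ± 3.96, and Tap1 was lowest at 18.6 ± 4.08. The ranges of these transporter subunits overlapped neither each other nor those of the genes above them. With all annotated exons as the length, B2m stayed first and Tap2 and Tap1 last, and Cd74 stood above H2-K1. The middle of the order depended on the length: H2-Aa went from place 5 to place 8, Tapbp from 7 to 5 and H2-Eb1 from 8 to 6.

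Cell type markers were read beside the members, because bulk tissue cannot tell more cells of a type from more RNA per cell. Macrophage markers rose in mNrf2-TG: 7 of 11 passed edgeR's test (Adgre1, Csf1r, C1qa, C1qb, C1qc, Cd163 and Cx3cr1), and 7 rose also without library 18. Cd68, Fcgr1, Mrc1 and Lyve1 were not called, with Log2FC of 0.34, 0.59, 0.42 and -0.24. Csf1r, the receptor for macrophage growth factor, had normalized counts of 274, 272, 332 and 283 in NTG and of 539, 725 and 549 in mNrf2-TG (Log2FC 1.06, edgeR adjusted p = 0.000598). All 3 mNrf2-TG libraries were above all NTG libraries for this gene. The summed macrophage markers were at 1763 to 2681 in NTG and at 3047, 4134 and 2941 in mNrf2-TG 17, 18 and 19, so library 18 was highest there too, by less than for the class II genes. Among macrophage markers highest in library 18, the largest ratio to the next library was 1.70, for Cd163.

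The class II members did not follow the macrophage markers. Summed over H2-Aa, H2-Ab1, H2-Eb1 and Cd74, they were 8.63, 7.51, 2.11 and 6.31 times Csf1r in NTG 1 to 4 and 2.01, 10.6 and 2.51 times in mNrf2-TG 17, 18 and 19. Relative to Csf1r, libraries 17 and 19 were thus close to NTG 3 and below the other NTG libraries. Relative to Ptprc, the pan-leukocyte gene of CD45, the sums were 48.9, 33.8, 13.8 and 29.9 in NTG and 11.2, 55.6 and 16.0 in mNrf2-TG. The order was similar with this denominator. The part of macrophage numbers in the class II levels was not tested.

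**Figure D3:**
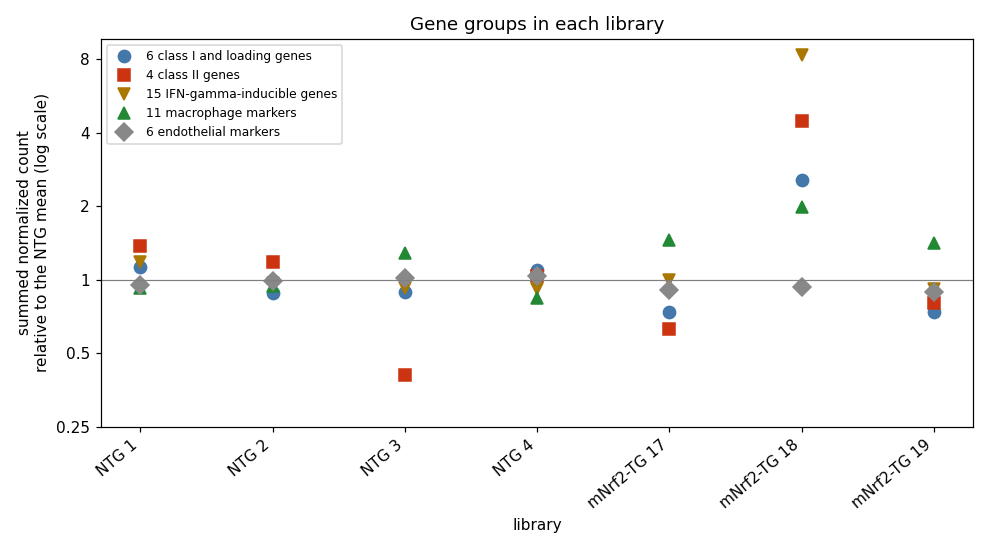
Summed TMM-normalized counts of 5 gene groups in each library, divided by the mean of the 4 NTG libraries (log axis). In library 18 the interferon gamma-inducible and class II groups stand farthest above 1, and the macrophage markers are above 1 in all 3 mNrf2-TG libraries, whereas the class I and class II groups in libraries 17 and 19 are below 1. The interferon gamma-inducible sum in library 18, 26360, is made up mainly of Igtp, Iigp1 and Irgm2 (8536, 5623 and 5250).

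Other leukocyte markers differed by type. Among the 4 general leukocyte markers Ptprc (Log2FC 0.96, edgeR adjusted p = 0.00768) and Laptm5 (0.67, adjusted p = 0.0128) rose, and Coro1a and Cd53 were not called. All 4 were highest in library 18, by at most 1.52 times. T and NK cell markers had 0 to 13 counts in every library (6 genes measured, 0 called by edgeR and 0 with an unadjusted p below 0.05) and B cell markers 0 to 9 (3 measured, likewise 0 and 0). Their sums in library 18, 16.7 and 3.94 normalized counts, were within the NTG range of 8.05 to 17.9 for the former and below the NTG range of 7.20 to 13.9 for the latter. Library 18 was highest for 2 of the 6 T and NK cell markers, Cd3e at 3 counts and Ncr1 at 4, which had at most 1 count in any other library, while Cd3d was at 1 and Cd8b1 and Cd79a were at 0.

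Of 8 dendritic cell markers, Xcr1 rose (2, 3, 2 and 5 counts in NTG and 8, 15 and 7 in mNrf2-TG) and Clec9a fell (Log2FC -0.81, edgeR adjusted p = 0.0193). Library 18 was highest for 4 of the 8, and by more than 2-fold for 2, Itgax (3, 6, 0 and 5 counts in NTG and 2, 11 and 0 in mNrf2-TG) and Flt3 (1, 0, 0 and 2 in NTG and 2, 7 and 2 in mNrf2-TG). Summed, the markers were at 125 to 144 in NTG and at 110, 140 and 103 in mNrf2-TG, a sum made up mainly of Zbtb46 and Clec9a. Of 3 monocyte markers, Ccr2 rose (Log2FC 1.20, edgeR adjusted p = 0.0427) and Ly6c2 fell (-0.54, adjusted p = 0.0174). Of 6 endothelial markers, Kdr rose, Pecam1 and Cdh5 fell, and the sum in library 18, 6132, lay between those of libraries 17 and 19, 5985 and 5870, and the NTG range of 6237 to 6838. Fibroblast markers rose in 3 of 5 (Col1a1, Lum and Tcf21) and cardiomyocyte markers fell in 2 of 6 (Tnni3 and Myl2). None of Xcr1, Ccr2, Kdr and Cdh5 was called without library 18 (edgeR adjusted p of 0.161, 0.175, 0.161 and 0.0791). The defining cardiomyocyte gene Myh6 had 136175 to 235608 counts per library. The part of these cell types in the members' levels was not tested.

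The rest of the pathway was read from 7 lists with 79 genes tested. Of these, 9 rose, 4 fell and 66 were not called, against 8.48% higher and 8.73% lower among all genes. Library 18 was highest in 48 of the 79, and by more than 2-fold in 29, against 15.7% and 1.02% of all genes. The lists were chosen with earlier results of these data known, so these counts describe the lists and are not a test.

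Among other class I and class I-like heavy chains, 2 of 15 rose, 0 fell and 13 were not called, and the median Log2FC was 0.61 against 0.00 for all genes. Without library 18 the median was -0.02 and 2 genes rose. H2-T22, a non-classical class I gene recognised by gamma-delta T cells, had normalized counts of 87.3, 99.0, 133 and 111 in NTG and of 247, 673 and 199 in mNrf2-TG (Log2FC 1.79, edgeR adjusted p = 0.0108). All 3 mNrf2-TG libraries were above NTG, and without library 18 its Log2FC was 1.05 (adjusted p = 0.00812 in edgeR). H2-T22 belongs to a family of similar genes that can share reads, so its counts are uncertain. Fcgrt, the heavy chain of the neonatal Fc receptor, which pairs with B2m, had 397, 359, 373 and 409 in NTG and 555, 569 and 603 in mNrf2-TG (Log2FC 0.58, edgeR adjusted p = 0.0012). It was higher in all 3 mNrf2-TG libraries, which differed little from each other.

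Those not called included genes that moved with H2-K1. H2-Q4 had 254, 222, 211 and 261 normalized counts in NTG and 210, 727 and 256 in mNrf2-TG, and H2-T23, which encodes Qa-1, had 146, 124, 150 and 161 in NTG and 138, 452 and 172 in mNrf2-TG. Both were within or near the NTG range in libraries 17 and 19. Hfe and Mr1, whose products also pair with B2m, were not highest in library 18.

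The immunoproteasome makes peptides suited to class I. Of the 5 genes listed for it (Psmb8, Psmb9, Psmb10, Psme1 and Psme2), 3 rose, 0 fell and 2 were not called, and library 18 was highest in 5 of 5. Psmb9 had normalized counts of 36.8, 26.1, 26.8 and 24.9 in NTG and of 59.2, 156 and 50.8 in mNrf2-TG (Log2FC 1.63, edgeR adjusted p = 0.0174). Psmb10 had 303, 310, 369 and 351 in NTG and 469, 664 and 416 in mNrf2-TG (0.63, adjusted p = 0.0189). Both were above NTG in all 3 mNrf2-TG libraries, and both were called without library 18 (Log2FC 0.94 and 0.41), but Psmb9 was not called without NTG 2 (edgeR adjusted p = 0.0502) nor Psmb10 without NTG 1 or NTG 2 (0.0520 and 0.0522). Psme2 rose with all libraries (0.55, adjusted p = 0.0338) but was not called without NTG 1, 2 or 4 or library 18 (edgeR adjusted p of 0.0560 to 0.0887). Psmb8, the neighbour of Tap1 in the MHC, had 105, 91.8, 102 and 101 in NTG and 100, 282 and 88.0 in mNrf2-TG, and was not called. Its library 17 was within the NTG range and its library 19 just below it, unlike those of Psmb9. Psme1 was called lower when library 18 was left out (-0.55, adjusted p = 0.0141).

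Of 10 further class I loading genes, 0 rose, 1 fell and 9 were not called in edgeR, whereas DESeq2 called 4 lower and limma-voom called 0. The gene that fell was Hspa5, the chaperone BiP (Log2FC -0.46, edgeR adjusted p = 0.0471), and it was called without NTG 3 but in no other fit that left out 1 library (adjusted p of 0.0853 to 0.156). Calr, Canx and Pdia3, chaperones of class I folding, had Log2FC of -0.41, -0.24 and -0.28 (edgeR adjusted p of 0.0640, 0.0661 and 0.0628), and Lnpep had 0.05. Calr, Canx and Pdia3 were called lower by DESeq2 (adjusted p of 0.0293, 0.0465 and 0.0424) and by edgeR without NTG 3 (0.00154, 0.0172 and 0.0148). Library 18 was highest in 2 of these 10 genes, Tapbpl and Erap1. Erap1, the aminopeptidase that trims class I peptides, had normalized counts of 448, 490, 495 and 499 in NTG and of 349, 677 and 388 in mNrf2-TG, and fell without library 18 (-0.39, adjusted p = 0.0324).

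Of 10 other class II and lysosomal loading genes, 2 rose, 1 fell and 7 were not called. Ctsd, cathepsin D, rose (11262, 9899, 10841 and 11355 in NTG and 17425, 18179 and 15784 in mNrf2-TG, Log2FC 0.66, edgeR adjusted p = 0.000537), and so did Ctsb (0.27, adjusted p = 0.0441), while Ctsl fell (-0.28, adjusted p = 0.0223). These general lysosomal proteases occur in most cells, and Ctsd was called in every fit without 1 library. Ctsb was not called without NTG 1, 2 or 4 or any 1 of the mNrf2-TG libraries (edgeR adjusted p of 0.0501 to 0.132), and Ctsl was not called without NTG 4, library 18 or library 19 (0.0518 to 0.0828). H2-DMa, which exchanges peptides on class II, had 19.5, 18.9, 14.4 and 16.9 in NTG and 22.6, 93.6 and 30.0 in mNrf2-TG (Log2FC 1.48, edgeR adjusted p = 0.0522). Library 18 was 3.12 times the next, while libraries 17 and 19 were above all NTG libraries. Ctss, which cuts the invariant chain, was not called (0.75, adjusted p = 0.0975). H2-DMa was called higher by DESeq2 (adjusted p = 0.0158) and by edgeR without library 17 or 19 (0.0320 and 0.0477), and Ctss by DESeq2 (0.0425) and without library 19 (0.0367).

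Among 18 regulators of MHC genes, 0 rose, 2 fell and 16 were not called. Irf2 (Log2FC -0.42, edgeR adjusted p = 0.0133) and Jak2 (-0.39, adjusted p = 0.0329) fell, and Irf2 was called also without library 18, with -0.43. Irf2 was not called without library 17 (edgeR adjusted p = 0.0501), nor Jak2 without NTG 1, NTG 2 or any 1 of the mNrf2-TG libraries (0.0548 to 0.102). The interferon gamma receptor and kinase genes Ifngr1, Ifngr2 and Jak1 were not called and were not highest in library 18, although Jak1 was called lower by DESeq2 (adjusted p = 0.0422) and by edgeR without NTG 3 or NTG 4 (0.0456 and 0.0278), Ifngr2 without NTG 3 (0.0239), and Ifngr1 under both stricter filters on low counts (0.0472 and 0.0498). Nlrc5 and Ciita were named after their values were seen. Nlrc5 had 36, 31, 34 and 36 counts in NTG and 29, 246 and 39 in mNrf2-TG. Library 18 was highest, as for the class I heavy chains, but by more. In normalized counts it was 5.86 times the next for Nlrc5, 2.96 for H2-K1 and 2.32 for H2-D1. Ciita had 15, 15, 3 and 14 counts in NTG and 8, 96 and 10 in mNrf2-TG. NTG 3 was lowest, libraries 17 and 19 came next and library 18 was highest, as for the class II chains. Counts this low carry a wide counting error.

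Of 15 interferon gamma-inducible genes, 2 rose, 0 fell and 13 were not called, and library 18 was highest in 13 of 15. Igtp, an immunity-related GTPase, had 197, 180, 139 and 185 normalized counts in NTG and 748, 8536 and 585 in mNrf2-TG (Log2FC 4.23, edgeR adjusted p = 0.00852). Irgm2 had 313, 307, 250 and 264 in NTG and 514, 5250 and 425 in mNrf2-TG (2.86, adjusted p = 0.0269). Both were above NTG in all 3 mNrf2-TG libraries and were called without library 18 (1.93 and 0.73), but Irgm2 was not called without NTG 1, 2 or 4 (edgeR adjusted p of 0.0605 to 0.0674). Iigp1 had 705, 646, 526 and 664 in NTG and 502, 5623 and 565 in mNrf2-TG, and Irgm1 had 253, 219, 213 and 249 in NTG and 162, 1367 and 229 in mNrf2-TG. For Iigp1 and Irgm1, libraries 17 and 19 were within or below the NTG range. Gbp2 and Gbp6 fell without library 18 (-0.81 and -0.91, edgeR adjusted p = 0.0221 and 0.0109). Cxcl9 and Cxcl10, chemokines of the same response, were not highest in library 18: Cxcl9 had 131, 72.9, 61.9 and 77.7 in NTG and 15.1, 64.0 and 44.5 in mNrf2-TG, and Cxcl10 had 1 to 6 counts per library. Cxcl9 was called lower by DESeq2 (Log2FC -1.05, adjusted p = 0.0455), and Gbp3 was called higher by edgeR without library 19 (1.35, adjusted p = 0.0359).

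Of 6 costimulation genes, 0 were called by edgeR, DESeq2 or limma-voom, and 2 had an unadjusted p below 0.05 in edgeR, Cd86 and Cd83 (adjusted p of 0.0627 and 0.0913). Without NTG 4, 3 were called in edgeR, Cd86 and Cd83 higher and Icosl lower (adjusted p of 0.0399, 0.0267 and 0.0146), and without library 19 Cd86 was called (0.0406). Cd274, which encodes PD-L1, had 123, 99.0, 103 and 70.7 in NTG and 86.1, 417 and 84.4 in mNrf2-TG, 3.39 times the next library in library 18. Cd86 had 31.0, 24.3, 23.7 and 38.8 in NTG and 52.7, 60.1 and 36.3 in mNrf2-TG, and Icosl was lower in library 18 than in 3 of 4 NTG libraries.

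**Figure D4:**
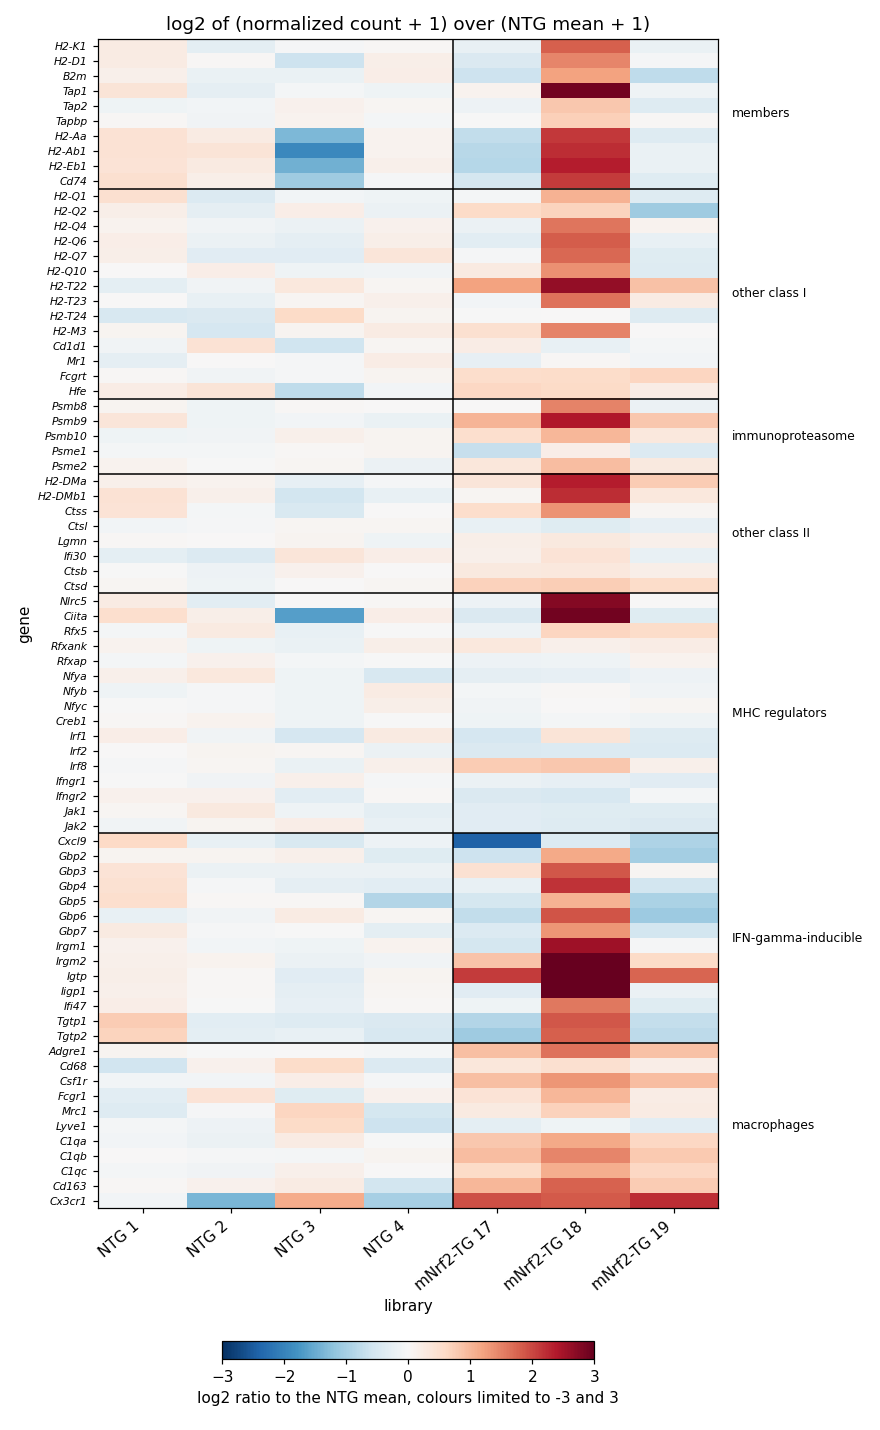
Log2 ratio of each normalized count plus 1 to the NTG mean plus 1, for the members, 5 pathway lists and the macrophage markers (rows, reported genes with a mean normalized count of at least 10) in 7 libraries (columns). The column of mNrf2-TG 18 is red for all 10 members and for most interferon gamma-inducible genes, NTG 3 is blue for the class II members and Ciita, and the macrophage rows that passed the test, such as Csf1r and C1qa, are red in all 3 mNrf2-TG columns, while Lyve1 is not.

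Outside the members, 31 genes shared their pattern in library 18. Among the 9666 genes with a mean normalized count of at least 50, 39 were highest in library 18 by more than 2-fold, or 0.403%. That mean includes library 18, so a gene can reach it through library 18 alone. Gm4841 did so, with 2.7 to 17.2 in the other libraries and 1286 in library 18. The 39 genes were 8 of the members, 20 genes of the pathway lists and 11 others. The members and lists were chosen with earlier results of these data known, so this split is not a test. The largest ratios to the next library were 74.6 for Gm4841, 32.2 for F830016B08Rik, 11.4 for Igtp and 10.2 for Irgm2, all above those of the members. Gm4841 and F830016B08Rik were named after their values were seen.

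The genes whose pattern over the 7 libraries was nearest to the class I members were sought among 9656 genes. Distance was the root mean square difference of centred log2 normalized counts from the mean profile of H2-K1, H2-D1 and B2m. The nearest were H2-Q6 at 0.113, H2-Q4 at 0.165, Xaf1 at 0.184, H2-Q7 at 0.187 and Psmb8 at 0.201, and the median gene was at 0.638. H2-K1, H2-D1 and B2m themselves were at 0.162, 0.181 and 0.172, so H2-Q6 was nearer to their mean than any of them. H2-Q6 and H2-Q7 share sequence windows with H2-D1, and H2-Q4 shares them with H2-K1. The nearness of these H2-Q genes can include reads that could have come from either gene. For the class II profile the nearest were H2-Q6 at 0.519, Irgm1 at 0.523, Gbp4 at 0.523, Iigp1 at 0.532 and Tgtp1 at 0.551, with the median gene at 1.07. The 4 class II members lay between 0.0633 and 0.188 from their own mean. Each of these members is part of that mean, so its distance is small in part by construction and cannot be compared with those of other genes. The drop of more than 2-fold in NTG 3, which the 5 nearest genes lacked, was part of their distance. Genes with a mean normalized count below 50 were not candidates. Among those left out were Ciita and H2-DMa, which were also lowest in NTG 3. Ciita was at 3.09 there and at 13.5 in the next NTG library, but H2-DMa was only at 14.4 and 16.9.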

How the data were processed

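Poly(A)-selected heart RNA of 7 mice was made into stranded libraries, and single reads of 50 bases were taken. The authors aligned the reads with Novoalign (2.08.01 in the submitters' processing notes) and deposited counts of reads per gene without normalization. Both hg19 and mm10 (GRCm38) are named as the reference in the methods, and the counting program is not given in the sources used here. The authors also deposited rlog values, a signal column (mean count divided by size factors), from which only identifiers were used, and their own comparison (fold changes and p-values), and neither the rlog values nor that comparison was used. Of 14665 entries, 24 repeats of a gene were removed, and 14637 genes with a summed count above 1 were tested. Groups came from the labels and were compared in edgeR 4.0.16 (R 4.3.3) with TMM, the quasi-likelihood test and Benjamini-Hochberg adjustment over all genes. DESeq2 1.42.0 and limma-voom 3.58.1 were among 15 alternatives. The test was tested on simulated data. The p-values set the difference between groups against the spread between mice, which edgeR estimates with information from all genes. The members and lists were chosen with earlier results of these data known. Named genes are the members, called genes of each list and up to 4 others with the highest mean, and the 5 nearest genes of each group, and 1 gene of the regulator list is not reported here. Totals of 6534684 to 8405857 counts leave genes with few counts imprecise.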

Additional observations from a re-analysis of the deposited data

How the results depend on the processing

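No paired analysis was possible because the groups share no replicate number. Leaving out 1 library in turn gave 1373 to 2950 genes called, against 2519 with all libraries, 0 to 1 members called, against 0, and 6 to 18 pathway list genes called, against 13. The Log2FC turned negative without mNrf2-TG 18 in 9 members, and over the fits without 1 library it ranged from -0.21 to 1.12 for H2-K1, -0.22 to 0.90 for H2-D1, -0.69 to 0.56 for B2m, -0.01 to 2.13 for Tap1, -0.27 to 0.41 for Tap2, -0.54 to 1.35 for H2-Aa, -0.48 to 1.46 for H2-Ab1, -0.48 to 1.59 for H2-Eb1 and -0.45 to 1.34 for Cd74. For B2m limma-voom gave -0.05. The 8 alternatives that kept all libraries called 0 members. DESeq2 gave no adjusted p for Tap1, H2-Aa, Igtp and Irgm2, among others. It gave an adjusted p for 68 of the 79 list genes, and for 7 of the 15 interferon gamma-inducible genes. H2-T22, Fcgrt, Ctsd and Igtp were called under every alternative that gave an adjusted p, whereas Hspa5 was lost in 8 of 15, Ctsb in 6, Jak2 in 5, Psme2 and Irgm2 in 4, Ctsl in 3, Psmb10 in 2 and Psmb9 and Irf2 in 1. Calls per list ranged over all alternatives from 0 to 4 for class I loading (1 with all libraries), 0 to 3 for the immunoproteasome (3), 1 to 5 for other class II genes (3), 0 to 4 for regulators (2), 0 to 3 for costimulation (0) and 1 to 4 for interferon gamma-inducible genes (2), and were 2 throughout for other class I heavy chains. Genes with under 20 counts in most libraries, such as Ciita, Xcr1 and the T cell markers, have imprecise values.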
